A study of Mus musculus with 2 samples.

Results

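Stra8-high germ cells are the germ cells of the fetal mouse ovary that carry many transcripts of Stra8, the gene of a germ cell factor that is switched on as cells leave the mitotic cycle and enter meiosis. They were selected on measured transcripts in 2 libraries of single cells, 1 wild type (WT) and 1 with a deletion of the glucocorticoid receptor (KO). A barcode was kept when it held at least 3000 unique molecular identifiers (UMIs, each 1 captured transcript), of which under 10% were mitochondrial. It was called a germ cell when Dazl, Ddx4, Smc1b, Sycp1, Sycp3 and Stra8 summed to at least 20 UMIs per 10000 UMIs of the cell. Germ cells with Stra8 at 5 or more per 10000 were then taken, and the 1000 of these 3015 cells with the highest sum of Dppa5a, Rhox5, Rhox6 and Rhox9 were set aside. The remaining 2015 Stra8-high germ cells, 588 in the WT and 1427 in the KO library, were chosen by these 10 genes out of 18617 germ cells and 25395 kept cells. Values of the 10 genes are therefore given as a description of the choice and support nothing.

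Both libraries came from ovaries of female embryos at E15.5 (embryonic day). KO embryos lacked the floxed exon 3 of Nr3c1, the glucocorticoid receptor gene, through an Nr3c1 tm1.1Jda allele recombined by a β-actin-Cre that acts in all tissues including the germline, so that somatic cells were deleted as well. WT and KO embryos carried the Tg(Pou5f1-EGFP)2Mnn reporter, by which germ cells were sorted before they were mixed with somatic cells at 60 to 40. The KO library pooled 2 embryos and the WT library 4 embryos, and each genotype was 1 library with no replicate. Differences between KO and WT therefore could not be tested and cannot be told apart from differences between embryo pools, sorts or captures. Intervals given with values are exact 95% intervals for counting error only.

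The libraries differed in depth. Stra8-high cells held a median of 22876.5 UMIs in WT and 15124 in KO, and 16565 and 10992 UMIs were the medians of germ cells under the Stra8 limit. Of all deposited barcodes, 75 were present in both libraries, and these included 4 WT and 2 KO Stra8-high cells. UMIs of the lists of granulosa, stroma and theca, surface epithelium, endothelial, immune and erythroid markers reached 10 per 10000 in 24 of the 588 WT cells (4.08%) and in 114 of the 1427 KO cells (7.99%). Doublets were not called, and 41 WT and 54 KO Stra8-high cells exceeded the upper UMI limit that the study set for each library.

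In the fetal ovary, germ cells receive retinoic acid and bone morphogenetic protein (BMP) signals from the mesonephros and the somatic cells, and respond by transcribing Stra8. The STRA8 protein acts with MEIOSIN at the promoters of meiotic genes, while cells finish a last round of DNA replication. The chromosome axes, the programmed DNA breaks and the synaptonemal complex of meiotic prophase I follow, as Stra8 and the genes of the primordial germ cell are turned off. Cells of 1 ovary enter this sequence at different times, so an E15.5 ovary holds cells before, at and after it.

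The marker genes given for these cells other than the selection genes were present in both libraries. Stra8 itself stood at 1146 UMIs in a pool scaled to 1000000 (CPM; 1128 to 1163) in WT and 1135 CPM (1121 to 1149) in KO Stra8-high cells. Tuba3a, an alpha-tubulin of the germline, was measured at 503 CPM in WT and 538 CPM in KO, against 129 and 152 CPM in germ cells under the Stra8 limit. M1ap, a gene needed for meiosis I, was measured at 643 CPM in WT and 816 CPM in KO, against 294 and 398 CPM. Cdkn2a, which encodes cell cycle inhibitors, was measured at 244 CPM in WT and 261 CPM in KO, against 71.9 and 82.8 CPM. Each of these 3 genes was thus more than 2 times as high as in the cells under the limit in both libraries, and each lay under 12 CPM in kept cells that were not germ cells. Tuba3a and Cdkn2a did not set these cells apart from the cells set aside. There Tuba3a was measured at 584 CPM in WT and 580 CPM in KO, and Cdkn2a at 221 CPM in both, each within 1.5-fold. Dazl, which was part of the germ sum, reached 1529 and 1392 CPM.

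In the share of cells with a UMI, M1ap was detected in 100% of WT and 99.2% of KO Stra8-high cells. After each cell was thinned to 3000 UMIs the shares were 85.9% and 88.3%, against 46.6% and 53.6% of cells under the Stra8 limit and 2.23% and 3.82% of non-germ cells thinned alike. Cdkn2a was detected in 51.9% of WT and 54.5% of KO Stra8-high cells after thinning (96.1% and 95.4% before), and in 0.652% and 0.950% of thinned non-germ cells. Median depth before thinning was 11884 UMIs in WT and 7826.5 UMIs in KO non-germ cells.

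The promoters of 4 genes are shown. Stra8 chose the cells, Tuba3a is a marker given for them, and M1ap and Prdm9 were picked because they hold the motif CNCCTCAG. This motif is known for STRA8 and MEIOSIN. Each promoter is the RefSeq window of 300 bases from 250 before to 50 after a start site in GRCm38.p6. It is read 5′ to 3′ on the gene's strand. Capitals mark CNCCTCAG on either strand.
Stra8, chr6:34920698-34920997, plus strand: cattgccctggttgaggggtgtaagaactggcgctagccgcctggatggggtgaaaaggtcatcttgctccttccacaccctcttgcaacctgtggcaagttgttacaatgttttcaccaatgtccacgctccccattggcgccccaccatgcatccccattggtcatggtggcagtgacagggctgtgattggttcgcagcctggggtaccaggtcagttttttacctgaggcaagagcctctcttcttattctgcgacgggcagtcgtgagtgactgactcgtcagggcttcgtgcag
Tuba3a, chr6:125286032-125286331, minus strand: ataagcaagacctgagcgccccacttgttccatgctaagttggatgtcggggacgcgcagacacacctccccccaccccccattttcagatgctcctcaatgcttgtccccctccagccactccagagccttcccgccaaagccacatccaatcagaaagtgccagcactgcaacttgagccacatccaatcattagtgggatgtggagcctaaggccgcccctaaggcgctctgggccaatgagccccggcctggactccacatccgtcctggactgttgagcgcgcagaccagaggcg
M1ap, chr6:82946672-82946971, plus strand: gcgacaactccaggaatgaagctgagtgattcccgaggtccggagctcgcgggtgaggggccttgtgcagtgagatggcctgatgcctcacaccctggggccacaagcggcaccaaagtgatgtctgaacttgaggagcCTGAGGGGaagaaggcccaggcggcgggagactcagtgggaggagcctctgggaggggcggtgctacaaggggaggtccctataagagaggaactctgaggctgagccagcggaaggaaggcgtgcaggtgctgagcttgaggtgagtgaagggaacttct
Prdm9, chr17:15564305-15564604, minus strand: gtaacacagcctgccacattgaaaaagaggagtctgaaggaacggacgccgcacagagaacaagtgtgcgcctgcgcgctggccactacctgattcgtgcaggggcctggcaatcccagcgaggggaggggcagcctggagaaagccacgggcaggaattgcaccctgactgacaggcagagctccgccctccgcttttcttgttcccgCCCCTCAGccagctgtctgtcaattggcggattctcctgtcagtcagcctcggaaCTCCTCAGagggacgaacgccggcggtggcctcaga
The match in the M1ap window starts 111 bases before the start site, and those in the Prdm9 window start 41 bases before and 15 bases into the transcript. No match was present in the windows of Stra8 and Tuba3a, which says only that these letters are not in these windows. Another Prdm9 window, at chr17:15563282-15563581, held none either. Of further meiotic genes, Sycp1 held 1 match, and Rec8, Dmc1, Rad51ap2, Meioc, Mei1, Mei4, Hormad1, Stag3, Sycp3 and Smc1b held none. The gene bodies lie at chr6:34920163-34939344 (Stra8), chr6:125278274-125286042 (Tuba3a), chr6:82946902-83030309 (M1ap) and chr17:15543079-15564354 (Prdm9) in GENCODE M21, and all 4 are annotated as protein coding.

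**Figure D1:**
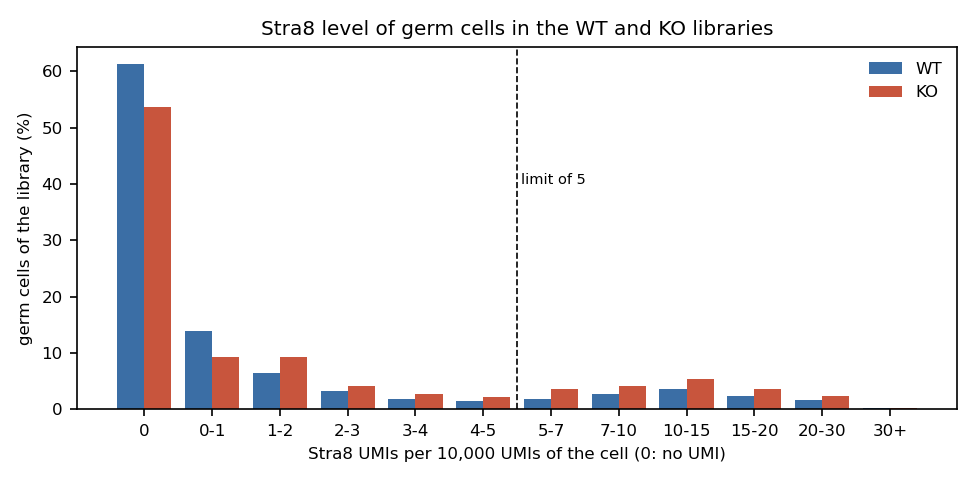
Percent of the germ cells of each library (y axis) by Stra8 UMIs per 10000 UMIs of the cell (x axis, bins of unequal width), with WT in blue, KO in red and the limit of 5 dashed. No Stra8 UMI was found in 61.3% of WT and 53.7% of KO germ cells, and 12.02% of WT and 18.9% of KO germ cells reached the limit; the bars show no empty interval at the limit.

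Stra8-high cells made up a larger share of germ cells in KO than in WT. The share was 12.7% (12.1 to 13.3) of 11253 KO germ cells and 7.98% (7.38 to 8.63) of 7364 WT germ cells. When every cell was thinned to 3000 UMIs before the selection, the shares were 12.1% and 7.85%. The cells set aside made up a larger share in KO as well, at 6.25% against 4.03%, so that cells under the Stra8 limit made up 81.1% of KO and 88.0% of WT germ cells. Each genotype was sorted and captured as a pool of its own, and the part of pool, sort and capture in these shares cannot be told apart from genotype.

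Within the selected cells the Stra8 level was alike in the libraries, while the median germ sum was 102 UMIs per 10000 in WT and 118 in KO. The median Stra8 level was 10.0 UMIs per 10000 in WT, with a lowest value of 5.003 and a highest of 50.6. In KO the median was 9.96, with values from 5.0025 to 38.4. The Stra8-high cell nearest to the limit had 5.0025 and the nearest germ cell under it had 4.995. For the sum of Dppa5a and the 3 Rhox genes, the highest selected cell had 10.033 and the lowest cell set aside had 10.044. Both limits thus cut through a continuous range of cells.

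The 1000 cells set aside and the cells under the Stra8 limit were used as the 2 neighbours of the Stra8-high cells. Levels were pooled over the cells of a set in each library, and a gene was counted as higher or lower when it differed by at least 1.5-fold in the same direction in both libraries, among genes with 100 or more UMIs over both sets in each library. Against all other germ cells, 756 of 12820 genes (5.90%) were higher and 2619 (20.4%) were lower in Stra8-high cells. Against the cells set aside, 494 of 8835 genes (5.59%) were higher and 1059 (12.0%) lower. Against cells under the limit, 1056 of 12647 genes (8.35%) were higher and 2804 (22.2%) lower. The cells were sorted into these sets by their own transcripts, so the counts describe the sets and were not tested.

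Genes with the largest ratios over all other germ cells were mostly low in level. Tuba3b, a close copy of Tuba3a whose counts may be shared with it, was measured at 69.4 CPM in WT and 86.9 CPM in KO. It stood at 17.9 and 22.2 CPM under the Stra8 limit and at 79.6 and 103 CPM in the cells set aside. Ccdc28b, a centrosome-associated coiled-coil gene, was measured at 48.5 and 50.9 CPM, against 4.86 and 7.73 CPM. Ccdc28b was higher still in the cells set aside, at 75.9 and 75.5 CPM, and was present in non-germ cells too, where 15.7% of WT and 14.5% of KO cells had a UMI after thinning, against 12.9% and 13.1% of Stra8-high cells (44.6% and 34.0% against 55.1% and 46.7% before thinning). Fxyd5, a regulator of the sodium pump, was measured at 29.9 and 37.3 CPM, against 5.19 and 6.70 CPM under the limit. Macrod1, an enzyme that removes ADP-ribose, was measured at 33.7 and 29.2 CPM, against 7.54 and 7.99 CPM under the limit. In the cells set aside Fxyd5 stood at 40.1 and 52.8 CPM and Macrod1 at 41.1 and 31.7 CPM. Loxl3, Pla2g7, Pnpla1, Tppp, Sept5 and Tspear completed the 10 and lay between 2.49 and 15.1 CPM in Stra8-high cells.

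Among the genes with the largest ratios in the other direction, Nlrp10, Itih2, Mdh1b, Barx2, F13a1, Speer4a, Myom3, Gucy2f and Ccdc148 were all under 3 CPM in Stra8-high cells. Myom3, a muscle M-band gene, was measured at 2.98 CPM in WT and 2.14 CPM in KO, against 26.9 and 19.1 CPM under the Stra8 limit. Speer4a, a gene of a rodent germ cell family, was measured at 1.85 and 1.53 CPM, against 17.0 and 14.3 CPM. Both were also low in the cells set aside, at most 1.14 CPM for each. Among genes at 50 CPM or more on one side, a level chosen after the values were seen, the largest ratios downward belonged to the testis-type histone genes Hist1h2aa (60.4 and 83.4 CPM, against 254 and 272 CPM) and Hist1h2ba (25.4 and 29.4 CPM, against 93.2 and 87.8 CPM), followed by the linker histone gene H1f0 (27.4 and 25.2 CPM, against 104 and 75.5 CPM).

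Levels in the Stra8-high cells were also set beside both neighbours at once. Of 8833 genes measured in all 3 sets, 216 (2.45%) fell by 1.5-fold at both steps from the cells set aside through Stra8-high cells to cells under the limit, and 107 (1.21%) rose at both. Another 154 (1.74%) were lowest and 36 (0.408%) were highest in Stra8-high cells. Of the listed genes, 19 fell at both steps, 7 rose at both, 8 were lowest and 1 was highest in the Stra8-high cells. Listed genes measured in all 3 sets were not counted, so these numbers cannot be set beside the shares over all genes.

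**Figure D2:**
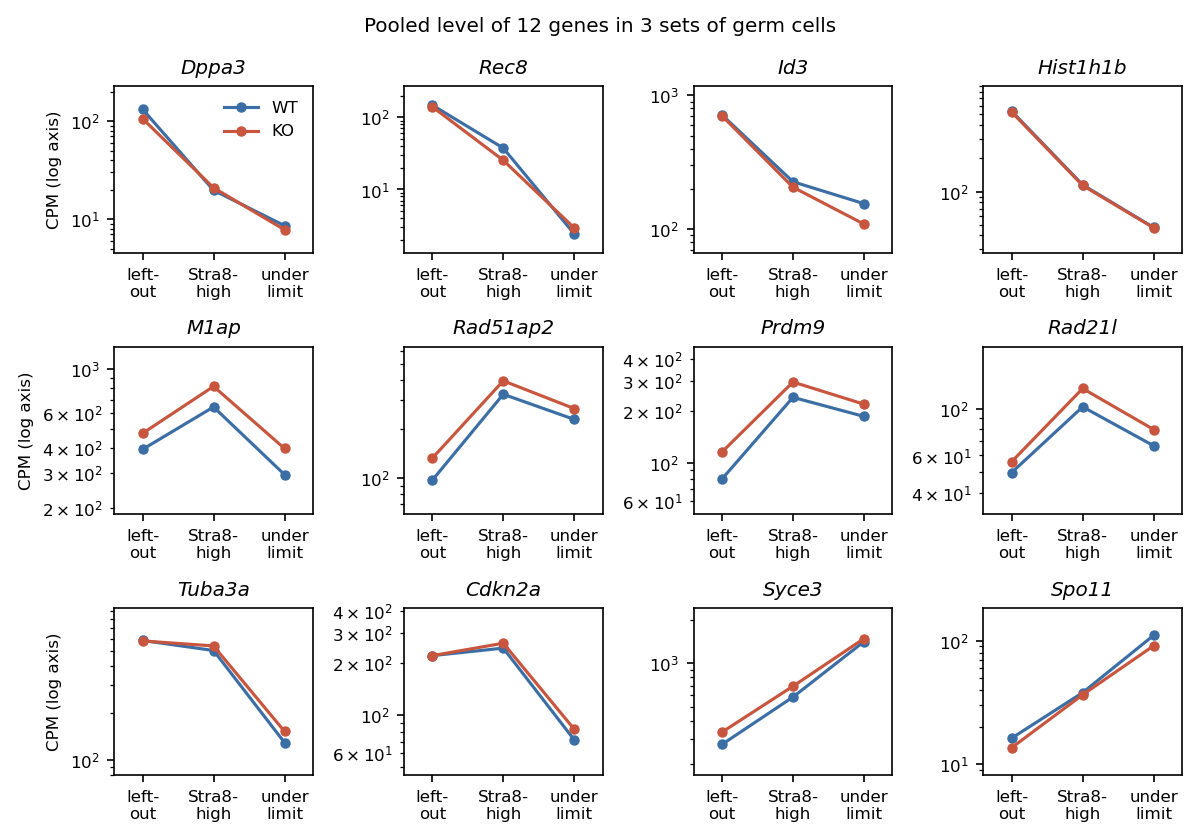
Pooled CPM (y axis, log scale, a range of its own in each panel) of 12 genes in the 1000 cells set aside, the Stra8-high cells and the germ cells under the Stra8 limit (x axis), with WT in blue and KO in red. Dppa3, Rec8, Id3 and Hist1h1b are lower at each step from left to right, M1ap, Rad51ap2, Prdm9 and Rad21l are highest in the Stra8-high cells, and Syce3 and Spo11 climb, in both libraries.

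M1ap was among the 36 genes that were highest in Stra8-high cells, with 394 CPM in the WT and 474 CPM in the KO cells set aside, below both values given above. Rad21l, a kleisin subunit of meiotic cohesin, was the listed gene with this pattern. It was measured at 102 CPM in WT and 124 CPM in KO Stra8-high cells, against 49.9 and 56.1 CPM in the cells set aside and 66.7 and 79.6 CPM under the limit. Kcnq1ot1, an imprinted non-coding RNA, was measured at 432 and 338 CPM, against 205 and 202 CPM and 160 and 137 CPM. Abhd18, a gene of little known function, ranked first of them by the smallest of its ratios, with 112 and 107 CPM in Stra8-high cells against 56.2 and 58.0 CPM and 57.0 and 56.1 CPM.

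Of the regulators of meiotic entry, 13 of 15 listed genes were measured and not used in the selection. Against all other germ cells 1 was higher and 0 were lower, beside 5.90% and 20.4% over all genes. The list's median log2 ratio was 0.28 in WT and 0.30 in KO, beside −0.17 and −0.20 over all genes. The higher gene was Zglp1, a zinc finger factor that acts downstream of BMP in oogenic fate, at 42.2 CPM in WT and 39.7 CPM in KO. Zglp1 fell at both steps, from 79.3 and 73.4 CPM in the cells set aside to 16.1 and 12.4 CPM under the limit. Meiosin, the partner of STRA8, was listed under the name Gm4969 and was measured at 46.2 CPM (42.7 to 49.9) in WT and 51.5 CPM (48.6 to 54.5) in KO. Its levels in the neighbours lay between 33.8 and 38.6 CPM, so it was highest in Stra8-high cells in both libraries without reaching the 1.5-fold limit. Meioc and Ythdc2, which act on RNA to keep cells in prophase I, were likewise within the limit, Meioc at 427 and 397 CPM against 317 and 305 CPM under the limit. Msx1 and Msx2, homeobox genes of the BMP response, were lower than in the cells set aside, Msx1 at 17.6 and 13.6 CPM against 80.4 and 91.0 CPM.

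Genes of the BMP response as a list were lower than in the cells set aside. There 7 of 12 measured genes were lower and 1 was higher, beside 12.0% and 5.59% over all genes. The median log2 ratio was −1.21 in WT and −1.18 in KO, beside 0.01 and −0.03 over all genes. Id3, an inhibitor of basic helix-loop-helix factors that BMP induces, was measured at 225 and 205 CPM in Stra8-high cells against 714 and 703 CPM in the cells set aside. Id1 was measured at 187 and 155 CPM against 436 and 446 CPM, and stood at 323 and 192 CPM under the Stra8 limit. Bmpr2, a receptor chain, was the gene that was higher than in the cells set aside, at 65.9 and 64.2 CPM against 40.9 and 36.2 CPM. Of the 19 retinoic acid genes, 8 had enough UMIs for this comparison, and 1 was higher and 2 were lower, beside 5.59% and 12.0% over all genes. Against cells under the limit 3 of 14 were higher and 3 lower, beside 8.35% and 22.2%. Crabp1, a carrier of retinoic acid in the cytoplasm, fell at both steps, from 86.2 and 90.2 CPM through 44.2 and 43.0 CPM to 8.51 and 12.4 CPM. Aldh1a2, which is also on the surface epithelium list, rose at both, from 1.77 and 3.85 CPM through 6.39 and 7.08 CPM to 10.6 and 15.6 CPM. Rarb, a receptor gene that retinoic acid induces, was near 1 CPM in Stra8-high cells (1.07 and 0.875 CPM), below the count filter.

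Genes of the primordial germ cell and of pluripotency were mostly lower than in the cells set aside. Of 16 measured genes 12 were lower and 0 were higher, beside 12.0% and 5.59% over all genes. The median log2 ratios were −1.59 and −1.48. The cells set aside were chosen for high Dppa5a and Rhox sums, so the selection shaped this difference. Dppa3, a chromatin protein of primordial germ cells and oocytes, was measured at 19.7 and 20.9 CPM against 132 and 106 CPM, and Sox2, a pluripotency factor, at 2.20 and 3.24 CPM against 21.3 and 24.4 CPM. Dnd1, an RNA-binding protein of the primordial germ cell, was named by the ratio rule with 1.85 and 1.22 CPM against 15.7 and 18.8 CPM. Compared with cells under the limit, 7 of 22 measured genes of the list were higher and 5 lower, beside 8.35% and 22.2% over all genes. The median log2 ratios there were 0.36 in WT and 0.37 in KO. Pou5f1, whose promoter drives the sorting reporter, was lowest in Stra8-high cells. It was measured there at 15.8 CPM in WT and 15.0 CPM in KO, against 57.6 and 48.9 CPM in the cells set aside and 44.8 and 33.2 CPM under the limit. Other genes with a minimum in the Stra8-high cells were Cdk4, at 29.9 and 32.1 CPM against at least 45.7 CPM in both neighbours, and the mitotic cyclins Ccnb1 and Ccnb2. Ccnb2 was measured at 38.5 and 30.0 CPM, against 86.7 and 79.8 CPM and 85.7 and 70.2 CPM.

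Of 40 listed replication genes 20 were lower and 0 were higher than in the cells set aside, beside 12.0% lower and 5.59% higher over all genes, with median log2 ratios of −0.70 in WT and −0.60 in KO. Tyms, which makes thymidylate, was measured at 13.1 and 11.9 CPM against 46.3 and 45.3 CPM, and the helicase gene Mcm2 at 16.0 and 11.7 CPM against 38.4 and 34.8 CPM. Hist1h1b, a linker histone gene, was measured at 115 and 113 CPM against 535 and 526 CPM, and at 47.2 and 46.9 CPM under the limit. Against the cells under the limit, 8 of the 40 replication genes were higher and 7 were lower, beside 8.35% and 22.2% over all genes. Ccne2, the cyclin that starts S phase, was measured at 343 and 368 CPM against 177 and 174 CPM, and Slbp, which binds the stem-loop of replication-coupled histone messages, at 366 and 378 CPM against 176 and 185 CPM. Against all other germ cells 3 of the 40 genes were higher and 7 lower, beside 5.90% and 20.4% over all genes. The higher genes were Ccne2, Slbp and Gins3. After thinning, Stra8-high cells held a mean of 9.50 (WT) and 9.41 (KO) UMIs of the 40 genes per 3000, against 11.7 and 11.5 in the cells set aside and 7.79 and 7.93 under the limit.

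The mitosis list did not move as one. Of 29 genes measured against the cells set aside, 0 were higher and 6 were lower, beside 5.59% and 12.0% over all genes. Of 30 measured against cells under the limit, 7 were higher and 5 lower, beside 8.35% and 22.2%. Tpx2, a spindle assembly factor, was measured at 207 and 184 CPM in Stra8-high cells, 164 and 155 CPM in the cells set aside and 97.1 and 92.7 CPM under the limit. Mki67, a marker of cycling cells, was within the limit at 184 and 173 CPM against 143 CPM in both libraries under it. Its share of cells after thinning was 35.9% in WT and 36.4% in KO Stra8-high cells (88.6% and 79.0% before thinning) against 28.9% in each library under the limit and 7.54% and 8.25% of non-germ cells. Ccnd1, which drives passage from G1, fell at both steps from 130 and 90.1 CPM through 29.1 and 17.4 CPM to 5.81 and 5.22 CPM.

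Of the chromosome axis and synaptonemal complex, 12 measured genes were not used in the selection. Against the cells set aside 4 of them were higher and 1 was lower, beside 5.59% and 12.0% over all genes. The others were within the limit. The lower gene was Rec8, a kleisin subunit of meiotic cohesin, with 37.4 CPM in WT and 25.4 CPM in KO against 147 and 140 CPM. Rec8 was nearly absent under the Stra8 limit, at 2.42 and 2.93 CPM, under its level of 17.4 and 12.5 CPM in non-germ cells. Sycp2, a lateral element protein, was measured at 333 and 372 CPM against 141 and 188 CPM. Syce3 and Six6os1, proteins of the central element, rose at both steps, Syce3 from 274 and 333 CPM through 584 and 694 CPM to 1417 and 1488 CPM. Stag3 and Hormad1, an axis cohesin and an axis protein, were within the limit in each comparison. Smc3, a cohesin subunit used in mitosis and meiosis, was higher than under the limit, at 1026 and 869 CPM against 445 and 411 CPM.

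Genes of DNA break formation differed from each other. Prdm9, the methyltransferase that marks the places of breaks, was measured at 240 CPM (232 to 248) in WT and 295 CPM (288 to 302) in KO, against 80.2 and 115 CPM in the cells set aside. The Prdm9 level under the limit was 186 and 219 CPM, within the 1.5-fold limit. Ankrd31 and Zcwpw1, which act with the break machinery and with PRDM9 marks, were higher than in the cells set aside as well, Zcwpw1 at 1083 and 1216 CPM against 649 and 736 CPM. Mei4 and Rec114, which form a complex needed for breaks, were higher than under the limit but not than in the cells set aside, Mei4 at 31.8 and 24.1 CPM against 8.98 and 8.29 CPM. Spo11, the enzyme that cuts, rose at both steps, from 16.3 and 13.6 CPM through 38.1 and 36.6 CPM to 111 and 91.2 CPM. The thinned share of cells with a Spo11 UMI was 10.0% and 9.60% (52.6% and 38.7% before thinning), against 6.06% and 4.55% in the cells set aside, 28.6% and 24.8% under the limit and 1.02% and 0.929% of non-germ cells.

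Of 19 strand invasion genes, 4 were higher and 2 lower than in the cells set aside, and of 13 crossover genes 5 were higher and 1 was lower, beside 5.59% higher and 12.0% lower over all genes. Rad51ap2 was measured at 326 and 394 CPM against 97.4 and 133 CPM, and Meiob, which binds single-stranded DNA, at 218 and 252 CPM against 97.7 and 112 CPM. Dmc1, the meiotic recombinase, was within the limit in each comparison, with 132 CPM in WT and 175 CPM in KO. The crossover gene Rnf212 rose at both steps, from 15.9 and 21.7 CPM through 27.0 and 35.0 CPM to 54.9 and 64.0 CPM. The named genes that were higher than in the cells set aside by the ratio rule were Pcdh17, Gc, Reg2, Clhc1, Shank1 and Rad51ap2. Gc, which encodes the vitamin D-binding protein, was measured at 23.6 and 39.6 CPM against 5.81 and 10.2 CPM.

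Oocyte genes were few. Of 20 listed genes 6 had enough UMIs against the cells set aside, and Zp2 and Oosp1 had no UMI in Stra8-high cells of either library. Figla, a factor of primordial follicle formation, was measured at 193 and 207 CPM, within the limit against all sets. Of 18 measured genes of the piRNA pathway, which silences transposons, 0 were higher and 5 lower than in all other germ cells, beside 20.4% lower over all genes. Dnmt1, the maintenance DNA methyltransferase, was higher than under the limit, at 143 and 127 CPM against 51.4 and 53.0 CPM, while Uhrf1, which brings DNMT1 to replicated DNA, was lowest in Stra8-high cells, at 20.8 and 21.6 CPM against 38.3 and 36.2 CPM under the limit.

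Of 14 measured Xlr and Rhox genes that the selection did not use, X-linked genes of the germline, 7 were higher and 0 lower than under the Stra8 limit. Over all genes 8.35% were higher and 22.2% lower. The list's median log2 ratios were 0.68 in WT and 0.85 in KO. Xlr4b was measured at 248 and 420 CPM against 109 and 160 CPM. Xlr3c was measured at 31.7 and 51.8 CPM against 12.1 and 18.8 CPM, and at 67.7 and 87.5 CPM in the cells set aside. Genes of the Xlr3, Xlr4 and Xlr5 groups have near-identical copies, so their counts may be split or merged among copies.

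**Figure D3:**
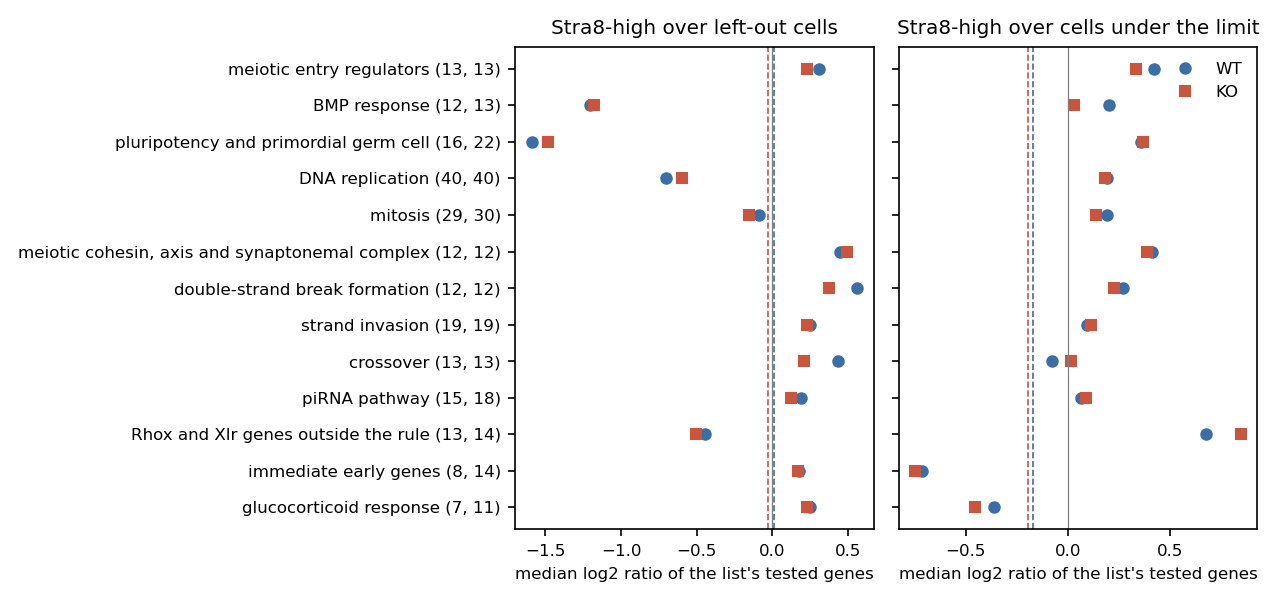
Median log2 ratio of Stra8-high cells over the 1000 cells set aside (left) and over germ cells under the Stra8 limit (right) for 13 gene lists (y axis, with the number of genes measured in the left and right comparison), WT as blue circles and KO as red squares. Dashed lines are the medians over all genes, 0.01 and −0.03 on the left and −0.17 and −0.19 on the right; BMP response and primordial germ cell genes lie farthest to the left, and Rhox and Xlr genes farthest to the right in the right panel.

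The motif CNCCTCAG was searched on both strands in the RefSeq windows of 300 bases. It was present in 7.94% of 32851 windows of all genes and in 9.33% of 12360 windows of genes measured in Stra8-high and other germ cells. Genes higher than in all other germ cells held it in 17.0% of 736 windows (593 of 756 genes matched a window), and genes lower in 5.77% of 2428 windows (1893 of 2619 genes). The 36 genes highest in Stra8-high cells held it in 7 of 36 windows. TTTCCCGC and TTTGGCGC, motifs of E2F factors, were present together in 1.56% of all windows, 3.00% of windows of measured genes and 3.12% of windows of the higher genes, against 30.6% of the 36 windows of the replication list. The genes were grouped by the values that the selection shaped, so these shares are descriptive.

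Stra8-high cells also varied among themselves along the selection genes. When they were split at 3.66 and 6.28 UMIs per 10000 of the Dppa5a and Rhox sum, the lowest group held 206 WT and 466 KO cells and the highest group 195 and 477. From the highest to the lowest group, Rec8 went from 67.5 to 9.89 CPM in WT and from 49.4 to 9.09 CPM in KO. Id1 went from 285 to 74.3 CPM and from 237 to 87.9 CPM. Prdm9 went the other way, from 182 to 307 CPM in WT and from 229 to 359 CPM in KO, as did Rad51ap2, from 222 to 440 CPM and from 299 to 468 CPM. Cdkn2a went from 245 to 229 CPM and from 260 to 255 CPM. The summed replication list went from 3209 to 3026 CPM and from 3285 to 3038 CPM. Median depth was 24496 and 21474 UMIs in the highest and lowest WT groups and 15697 and 13555 in the KO groups.

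Split by Stra8 itself at 10 and 20 UMIs per 10000, 293 WT and 716 KO cells were in the lowest and 47 and 113 in the highest group. Rec8 was measured at 115 and 81.8 CPM in the highest and 15.55 and 13.1 CPM in the lowest Stra8 group. Spo11 was measured at 22.4 and 16.0 CPM in the highest and 45.0 and 44.5 CPM in the lowest. Hormad1 lay between 529 and 532 CPM in WT and between 664 and 697 CPM in KO.

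For the comparison of genotypes, the deleted gene was examined first. Nr3c1 was measured at 87.0 CPM in WT (1226 UMIs) and 13.6 CPM in KO (310 UMIs) Stra8-high cells, a log2 ratio of −2.68 (−2.87 to −2.50). The ratio was −2.65 in all other germ cells and −1.92 in non-germ cells. The reads come from near the 3′ end of transcripts, outside the deleted exon 3, so this level does not read the deletion itself. In WT, Nr3c1 was alike in the cells set aside (81.3 CPM) and somewhat lower under the Stra8 limit (69.0 CPM).

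Other differences between KO and WT Stra8-high cells were counted over all genes. Among 9763 genes with 100 or more UMIs in both libraries together, 231 (2.37%) were higher and 187 (1.92%) lower in KO by at least 1.5-fold with an interval that excluded no difference, and the median log2 ratio was −0.02. In all other germ cells, 877 of 14282 genes (6.14%) were higher and 346 (2.42%) lower. Among genes of 10 CPM or more, a level chosen after the values were seen, 79 of 7020 were higher and 58 lower in KO Stra8-high cells. When germ cells with 10 or more UMIs per 10000 of somatic markers were removed, 157 were higher and 251 lower, so the balance of directions turned.

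**Figure D4:**
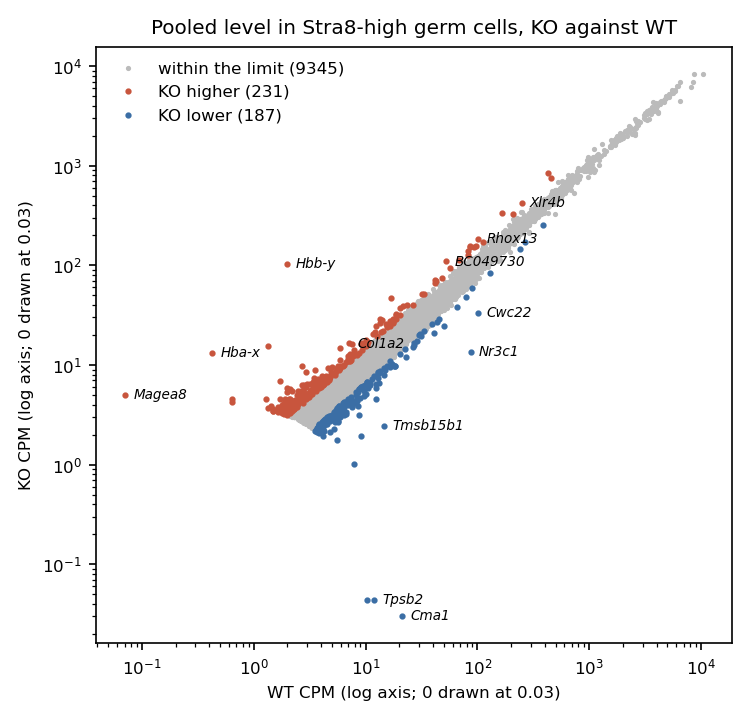
Pooled CPM of 9763 genes in WT (x axis) and KO (y axis) Stra8-high cells, both on log scales, with the 231 genes higher in KO in red, the 187 lower in KO in blue and the rest grey. Most genes lie along the diagonal; Hbb-y, Hba-x, Tpsb2, Cma1, Nr3c1 and Cwc22 lie far from it, and 1 WT cell held nearly all WT UMIs of Tpsb2 and Cma1.

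Of the named genes, those with the 3 largest ratios downward rested on 1 cell. Tpsb2, Cpa3 and Cma1, protease genes of mast cells, were lower in KO, and 1 WT cell held 100%, 100% and 99.3% of their WT UMIs. That cell had 48455 UMIs in total. Hbb-y and Hba-x, embryonic globin genes, were higher in KO (104 against 1.99 CPM for Hbb-y), and 1 KO cell held 53.7% and 51.8% of their UMIs in KO. Without the highest cell of each gene their log2 ratios were still 4.71 and 4.18, and with cells rich in somatic markers removed, the globins of the erythroid list included, they were 0.87 and 0.81. Of the 97 KO UMIs of Gng11, a G protein subunit gene, 48.5% came from another single cell. Without the cell that held most UMIs of each gene, 263 genes were higher and 165 lower, an alternative added after the values were seen. After every cell was thinned to 3000 UMIs, 111 genes were higher and 77 lower, of which 33 and 18 were among the 231 and 187.

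Magea8, an X-linked gene of the MAGE family, was spread over 100 KO cells. It had 115 UMIs in KO, with at most 3 in any cell, and 1 UMI in WT, which gave 5.03 against 0.0710 CPM. In all other germ cells it stood at 1.14 CPM in WT and 2.10 CPM in KO, a log2 ratio of 0.88. The 2 neighbours differed in this, with 0 CPM in WT and 3.61 CPM in KO cells set aside, and 1.22 and 1.93 CPM under the Stra8 limit. Akr1cl, an aldo-keto reductase gene, was measured at 1.70 CPM in WT and 6.95 CPM in KO, Sparcl1, a matrix protein gene, at 2.70 and 9.88 CPM, and Cela2a, an elastase gene, at 1.28 and 4.55 CPM. Adcy10, the soluble adenylyl cyclase, was measured at 1.99 and 5.86 CPM. All 5 were under 10 CPM in both libraries, and Akr1cl and Sparcl1 stood at 145 to 203 CPM in non-germ cells.

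Of the named genes lower in KO, Cwc22, a splicing factor with near-identical copies in the mouse genome, was measured at 102 CPM in WT and 33.3 CPM in KO, a log2 ratio of −1.61 (−1.74 to −1.48). Its ratio was −1.13 in all other germ cells and −0.98 in non-germ cells. Tmsb15b1, a thymosin gene, was measured at 14.7 and 2.45 CPM, with ratios of −2.59 in Stra8-high cells, −0.85 in all other germ cells and −0.62 in non-germ cells. Cda, the cytidine deaminase gene, was measured at 5.54 and 1.75 CPM and Kremen1, a gene of Wnt signalling, at 8.66 and 3.15 CPM. Ccnd1 was also lower in KO, with a log2 ratio of −0.74 (−0.94 to −0.54) against 0.01 in all other germ cells, and Rrm1, a ribonucleotide reductase subunit gene, with −0.64 (−0.80 to −0.48) against −0.17. Both calls were lost after thinning, with ratios of −0.52 for Ccnd1 and −0.51 for Rrm1, and with equal shares by Stra8 rank, with −0.38 and −0.51. Neither difference was particular to Stra8-high cells. In the cells set aside alone the Ccnd1 ratio was −0.52 (−0.65 to −0.40), and under the Stra8 limit it was −0.15. Rrm1 stood at 76.9 CPM in WT and 60.8 CPM in KO cells set aside, and at 22.3 and 18.6 CPM under the limit.

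Of 13 measured Rhox and Xlr genes that the selection did not use, 5 were higher in KO and 0 lower, beside 2.37% and 1.92% over all genes. All 13 had ratios above 0, and the median log2 ratio was 0.49 beside −0.02 over all genes. Rhox13 was measured at 102 CPM in WT and 184 CPM in KO, a log2 ratio of 0.86 (0.77 to 0.94), and Xlr4b at 248 and 420 CPM, a ratio of 0.76 (0.70 to 0.82). Rhox1, Xlr3c and Xlr5c were the other 3, with ratios of 0.61, 0.71 and 0.80. With 2000 cells set aside the ratios of Rhox1 and Xlr5c were both 0.45, and after thinning both were 0.52, under the limit. In all other germ cells 7 of 15 members of the list were higher in KO, beside 6.14% over all genes, with a median of 0.58. Dppa5a, Rhox5, Rhox6 and Rhox9, whose sum was capped by the selection, were measured at 234, 63.1, 103 and 123 CPM in WT and 251, 65.1, 101 and 113 CPM in KO.

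**Figure D5:**
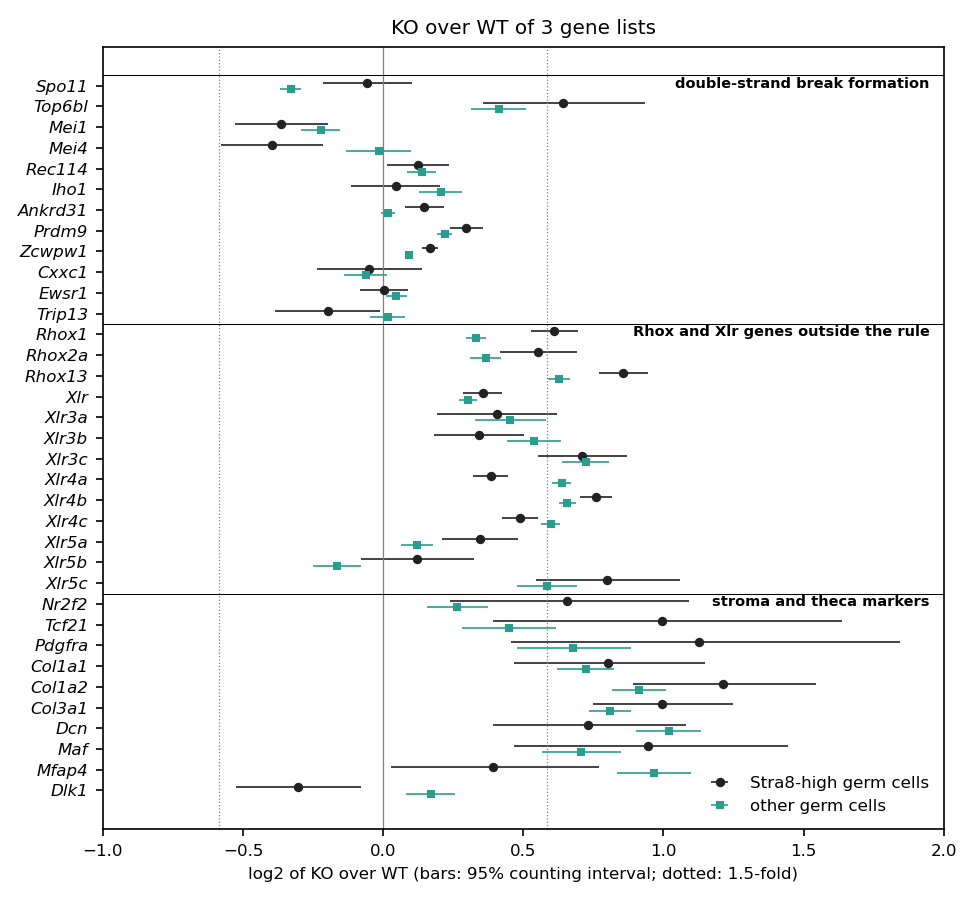
Log2 ratio of KO over WT (x axis) for measured genes of 3 lists (y axis) in Stra8-high cells (black circles) and all other germ cells (green squares), with 95% counting intervals as bars and 1.5-fold dotted. Break formation genes lie near 0 with Top6bl past 1.5-fold, Rhox and Xlr genes lie to the right in both sets except Xlr5b in the other germ cells, and stroma markers lie to the right except Dlk1 in Stra8-high cells.

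Meiotic lists differed little between the genotypes. Of 12 cohesin, axis and synaptonemal complex genes 0 passed the limit, with a median log2 ratio of 0.13. Of 12 break formation genes 1 was higher, beside 2.37% over all genes, and the list's median was 0.02. This gene was Top6bl, a subunit of the cutting complex listed in the files as Gm960, with 10.0 CPM in WT and 15.6 CPM in KO. None of 19 strand invasion or 13 crossover genes passed. Within the limit, ratios with intervals above 0 were found for M1ap at 0.34 (0.31 to 0.38), Hormad1 at 0.36 (0.32 to 0.40), Prdm9 at 0.30 (0.24 to 0.36) and Dmc1 at 0.41 (0.33 to 0.49). Rec8 was at −0.56 (−0.73 to −0.39). In all other germ cells the ratio was 0.43 for M1ap, 0.22 for Prdm9 and 0.52 for Rec8. The Rec8 ratio was −0.08 in the cells set aside and 0.27 under the Stra8 limit. When the same share of germ cells was taken by Stra8 rank in each library, the ratio was 0.33 for M1ap, 0.11 for Prdm9 and 0.35 for Dmc1, and 0.03 for Rec8.

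Of 40 replication genes 1, Rrm1, passed the limit and was lower in KO, and of 29 mitosis genes 0 passed. Shares over all genes, to be read beside each count here, were 2.37% higher and 1.92% lower in KO. The BMP response list had 1 of 11 genes past the limit, Bambi, a decoy receptor, with 3.48 CPM in WT and 7.43 CPM in KO. The Bambi ratio was 0.47 with cells rich in somatic markers removed, under the limit, and Bambi stood at 98.0 to 111 CPM in non-germ cells. Among 8 measured glucocorticoid response genes 1 passed, Mt1, a metallothionein gene, with 13.6 CPM in WT and 26.6 CPM in KO, a log2 ratio of 0.97 that turned to −0.33 when equal shares of germ cells were taken by Stra8 rank. Mt1 stood at 606 and 676 CPM in non-germ cells. Fkbp5 and Tsc22d3, standard targets of the receptor, were within the limit, Fkbp5 at 22.8 and 26.9 CPM and Tsc22d3 at 172 and 205 CPM. Chaperones of the receptor such as Hsp90ab1 and Fkbp4 were within the limit too, and Nr3c1 was the 1 of 11 measured genes of that list that was lower.

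Transcripts of somatic cells in the Stra8-high cells differed between the libraries for some marker lists. Stroma and theca markers were higher in KO for 8 of 10 genes, beside 2.37% over all genes. Their median log2 ratio was 0.87, with a summed level of 72.7 CPM in WT and 112 CPM in KO. Of 10 measured granulosa markers 0 passed the limit, with a median of 0.38 and sums of 117 and 153 CPM, while Foxl2 had 0.0710 CPM in WT and was at 0 in KO. Surface epithelium markers summed to 48.5 and 48.0 CPM and immune markers to 2.84 and 5.33 CPM. Endothelial and perivascular markers summed to 11.6 and 17.4 CPM, with 1 of 10 at 0 in WT. All 5 measured erythroid markers were higher in KO, with sums of 1054 and 2057 CPM. In non-germ cells the stroma list summed to 1973 CPM in WT and 1789 CPM in KO. In all other germ cells 7 of 10 stroma and 8 of 12 granulosa markers were higher in KO, beside 6.14% over all genes. Surface epithelium markers were higher there for 5 of 8 genes, and endothelial and perivascular markers for 6 of 8. Immediate early genes, which dissociation can induce, were higher in KO Stra8-high cells for 3 of 13 genes, beside 2.37% over all genes, with a median of 0.31. Col1a2 was measured at 7.10 CPM in WT and 16.4 CPM in KO, and Klf6 at 1.70 and 4.59 CPM. The part of somatic transcripts in the differences between the libraries was not tested, and beside them the share of Stra8-high cells was 12.6% in KO and 7.94% in WT when cells with 10 or more such UMIs per 10000 were removed.

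Oocyte genes did not pass the limit in any of 6 measured cases. Sohlh1, a germ cell transcription factor below the count filter, had 3.98 CPM in WT and 0.743 CPM in KO Stra8-high cells, a log2 ratio of −2.42 (−3.30 to −1.61). It was named after its values were seen, and its ratio in all other germ cells was −2.32. Of 16 measured apoptosis and checkpoint genes 1 passed, Trp53, which encodes p53, at 4.05 and 7.78 CPM. Over all genes 2.37% were higher in KO.

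Of the 231 genes higher in KO Stra8-high cells, 98 were past the same limit in all other germ cells, beside 6.14% over all genes. In non-germ cells 18 of 174 measured ones were. Of the 187 lower genes, 33 of 184 were lower by this limit in all other germ cells, beside 2.42% over all genes, and 17 of 163 in non-germ cells. Shares over all genes in non-germ cells were not counted, so the 2 counts there have nothing to be read beside. For 109 of the 231 and for 102 of 186 of the lower genes, the interval of the difference between the log2 ratios in Stra8-high and in all other germ cells excluded 0 in the same direction. The genes were picked for a large ratio in Stra8-high cells, which raises these counts. All other germ cells also mixed the 2 neighbours differently in each library. Cells set aside were 703 of 9826 in KO and 297 of 6776 in WT. Genes that differ between the neighbours can shift in ratio by this mix alone, and its part in these counts was not tested. No gene was past the limit in opposite directions in the 2 sets of cells.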

How the data were processed

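Single cells of fetal mouse ovaries were measured in 1 WT and 1 KO library. The deposited values were UMI counts per gene and barcode that the authors made with Cell Ranger 3.0.2, not normalised, and the authors' later steps used Seurat 3.2.3. Cell-calling settings were not given in the sources used here. Of 27998 gene identifiers, 27645 were found in the GENCODE M21 annotation. The counts were summed over the cells of a set and divided by the total (CPM), or divided by the cell's own total (UMIs per 10000). Intervals were exact Poisson, conditional binomial for ratios, or Clopper-Pearson at 95%. With 1 library per genotype no test was run. A limit of 1.5-fold and 100 UMIs was used, and scripts were tested on simulated data.

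The cells and the 26 gene lists were chosen with earlier results of these data known. Named genes were the 10 (all other germ cells), 6 (each neighbour) or 8 (KO and WT) with the largest ratios past the limit, without selection genes, Gm and Rik models, mitochondrial and ribosomal protein genes, plus listed genes. Some items that this rule names are not reported here. Sets at 50 CPM or more, or 20 CPM or more for KO and WT, and genes highest in Stra8-high cells were added after seeing the data. Computations used Python 3.11.15, numpy 2.4.6, scipy 1.17.1 and pandas 2.3.3.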

Additional observations from a re-analysis of the deposited data

How the results depend on the processing

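The alternatives were other limits on cells, Stra8, the germ sum and the cells set aside, thinning, removal of cells with somatic transcripts, equal shares by Stra8 rank, means over cells, another scaling and other gene limits. Another 3 were added after seeing the data, namely genes of 10 CPM or more, leaving out each gene's highest cell, and a counting interval in each library. Of 66 values of the shares and gene counts, 48 stayed near the reported value. The KO share was 12.03% with the study's limits on cells. With Stra8 of at least 10 the WT and KO shares were 3.35% and 5.13%, and with 2000 cells set aside 4.24% and 6.25%, so the KO share was the larger in each. Genes lower in Stra8-high than in all other germ cells numbered 1407 after thinning and 925 at 10 CPM or more. With a limit of 0.25 in ln(UMIs per 10000 + 1), 209 were higher and 67 lower. Genes higher in KO numbered 111 after thinning, 144 with Stra8 of at least 10, 478 at 20 UMIs, 79 at 10 CPM and 15 with the limit of 0.25. Genes lower in KO numbered 77, 401, 58 and 9 after thinning, at 20 UMIs, at 10 CPM and with the limit of 0.25. With Stra8 of at least 10, the log2 ratio of KO over WT turned for Cma1 (0.98) and Col3a1 (−0.11), and with equal shares for Mt1 (−0.33). The causes were not tested. Depth limits the comparison, since genes under 100 pooled UMIs were not called. Single KO cells were shallower, while the pool of Stra8-high cells held 22868875 UMIs in KO and 14087959 in WT.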
